A study of Rattus norvegicus with 9 samples.

Results

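The bone transcriptome of ovariectomized rats given 80 mg/kg of astragaloside IV (AS-IV) was compared with that of ovariectomized rats given vehicle. Of the 9 libraries of the series, 6 entered the comparison by their labels, 3 of the OVX-AS-IV-High group and 3 of the OVX group, and the genes described are the 12848 tested genes, of 23026 in the tables, whose mean count over these 6 libraries was 100 or more (well-expressed genes). All animals were female Sprague-Dawley rats bought at 8 weeks of age. Both groups had lost both ovaries by surgery, so neither had ovarian estrogen. Gavage began 6 weeks after the operation and was given once a day for 8 weeks, with 1% sodium carboxymethyl cellulose (CMC-Na) alone in OVX rats and with AS-IV in that vehicle in OVX-AS-IV-High rats. The 3 Sham libraries, from rats whose ovaries were left in place, are quoted as a background level and shared in the estimate of the spread. Their labels give CMC-Na at 1%, 2% and 3% for Sham 1, 2 and 3, where the methods of the study describe a single vehicle, and which is right is not known here. Each library came from the bone of 1 rat, and the libraries are named OVX 1 to 3 and AS-IV 1 to 3 here. Bone RNA was not sorted by cell type, so fewer cells of a type and less RNA per cell cannot be told apart in any value given here.

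Astragaloside IV is a triterpenoid saponin from the root of Astragalus membranaceus. Bone is built by osteoblasts, which secrete type I collagen, and removed by osteoclasts, and loss of ovarian estrogen tips this balance towards removal. Long bone also holds marrow, in which stromal cells carrying the leptin receptor lie among developing red cells, neutrophils and B cells. Insulin-like growth factor 1 and prostaglandin E2 are among the local signals known to act on osteoblasts.

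The 6 libraries held 36260132 to 37298250 counts each, and the Sham libraries held 34874880 to 35813432. The labelled tissue was checked on its markers. The 13 osteoblast and bone matrix genes summed to between 7536 and 24260 CPM (counts scaled to a common library size) in the 6 libraries, the 14 osteoclast genes to between 2942 and 4573 CPM, the 15 erythroid genes to between 20606 and 31064 CPM and the 15 neutrophil granule genes to between 29136 and 36757 CPM. Bone and marrow transcripts were therefore both abundant in every library.

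A gene was called when its unadjusted p was under 0.05 and its log2 fold change (AS-IV minus OVX) exceeded 0.58 in size, in edgeR's quasi-likelihood test. Of the 12848 well-expressed genes, 230 (1.79%) were called, 184 higher (1.43%) and 46 lower (0.358%) with AS-IV. Over all 16874 genes tested the shares were 2.19% in either direction, 1.51% higher and 0.682% lower. Past a log2 fold change of 1 in size, 36 (0.28%) were called, 23 higher (0.179%) and 13 lower (0.101%). After Benjamini-Hochberg adjustment over all 16874 genes tested, edgeR's quasi-likelihood test left 0 genes under 0.05, and the adjusted p of the called genes lay between 0.652 and 0.772. At an unadjusted p under 0.05 there were 948 well-expressed genes (7.38%), 676 of them higher (5.26%) and 272 lower (2.12%). DESeq2 on the same counts gave 37 genes with an adjusted p under 0.05, of which 31 were well expressed and 21 were among the 230 called here. Every call below is unadjusted, and directions given for uncalled genes, lists and terms are descriptive.

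The growth and signalling genes with the smallest p were Igf1, Lepr and Ptgs2, each higher with AS-IV. Igf1, which encodes insulin-like growth factor 1, had 2149, 1700 and 2290 counts in OVX 1 to 3 and 3557, 3635 and 2860 in AS-IV 1 to 3. The 3 AS-IV libraries all lay above the 3 OVX libraries, as was the case for 6.99% of well-expressed genes. Its level was 55.2 ± 9.13 CPM in OVX and 91.7 ± 11.3 CPM with AS-IV (mean ± SD, n = 3 each), a log2 fold change of 0.73 ± 0.15 (SE), and the call held with any of the 6 libraries left out. The Sham libraries, at 2022, 1577 and 1692 counts, lay near the OVX libraries.

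Lepr, the leptin receptor, had 3043, 2507 and 3379 counts in OVX and 4410, 5072 and 4558 with AS-IV. The groups did not overlap, and the log2 fold change of 0.67 ± 0.14 fell short of the call only without OVX 2, at 0.55. The marrow stroma list, which Lepr belongs to, gave 0 further calls among 9 well-expressed members, where 1.43% of all well-expressed genes were called higher. The list had a median log2 fold change of 0.03, and -0.08 without AS-IV 3. At an unadjusted p under 0.05 in the same test, 3 of the 9 were higher, Lepr among them, and 0 lower. Over all well-expressed genes these shares were 5.26% and 2.12%. Cxcl12, the chemokine that these stromal cells secrete, had a log2 fold change of 0.03 and Kitlg, the ligand of Kit, had 0.50 without being called. The summed level of the stroma list overlapped between groups, at 2124, 2743 and 2402 CPM in OVX and 2000, 2503 and 2817 CPM with AS-IV.

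Ptgs2 encodes the inducible cyclooxygenase that begins prostaglandin synthesis. It had 117, 91 and 139 counts in OVX and 507, 189 and 347 with AS-IV, with no overlap. The log2 fold change was 1.61 ± 0.35, and the smallest value with a library left out was 1.23, without AS-IV 1. Of the 10 well-expressed genes of the prostaglandin list Ptgs2 alone was called. The constitutive cyclooxygenase gene Ptgs1 had a log2 fold change of 0.03, the prostaglandin E synthase gene Ptges2 had -0.31, and the E-type receptor genes Ptger2, Ptger3 and Ptger4 had 0.16, -0.34 and -0.03.

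Genes of the immediate early group, which are transcribed within minutes of a stimulus to a cell, were called higher in 4 of 18 well-expressed members, where 1.43% of all well-expressed genes were, and lower in 0, with a median log2 fold change of 0.16 against -0.02 over all well-expressed genes. Egr1, a zinc finger transcription factor, had 1457, 1909 and 2259 counts in OVX and 4097, 2119 and 4295 with AS-IV. AS-IV 2 lay inside the OVX range, and the log2 fold change was 0.93 ± 0.26. Egr3, of the same family, had 349, 278 and 429 counts in OVX and 1015, 634 and 569 with AS-IV, with no overlap and a log2 fold change of 1.09 ± 0.29. Nr4a1, an orphan nuclear receptor, had 551, 851 and 508 counts in OVX and 1604, 836 and 1223 with AS-IV, and a log2 fold change of 0.97 ± 0.29. Its count in AS-IV 2 was just below that in OVX 2, though the groups did not overlap in CPM. The calls of Egr1, Egr3 and Nr4a1 held with any library left out.

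Fos, a subunit of the AP-1 factor, had 369, 788 and 645 counts in OVX and 868, 798 and 1281 with AS-IV. OVX 2 and AS-IV 2 were close to each other, and the log2 fold change of 0.74 ± 0.29 lost its call without OVX 1 (0.49) or without AS-IV 3. Other members were mixed, with Junb at 0.41, Nr4a2 at 0.44, Jun at -0.11 and Klf4 at -0.38, none of them called. Over the 18 genes the median was 0.41, 0.25 and 0.09 in AS-IV 1, 2 and 3, and without OVX 3 the median log2 fold change was 0.05.

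**Figure D1:**
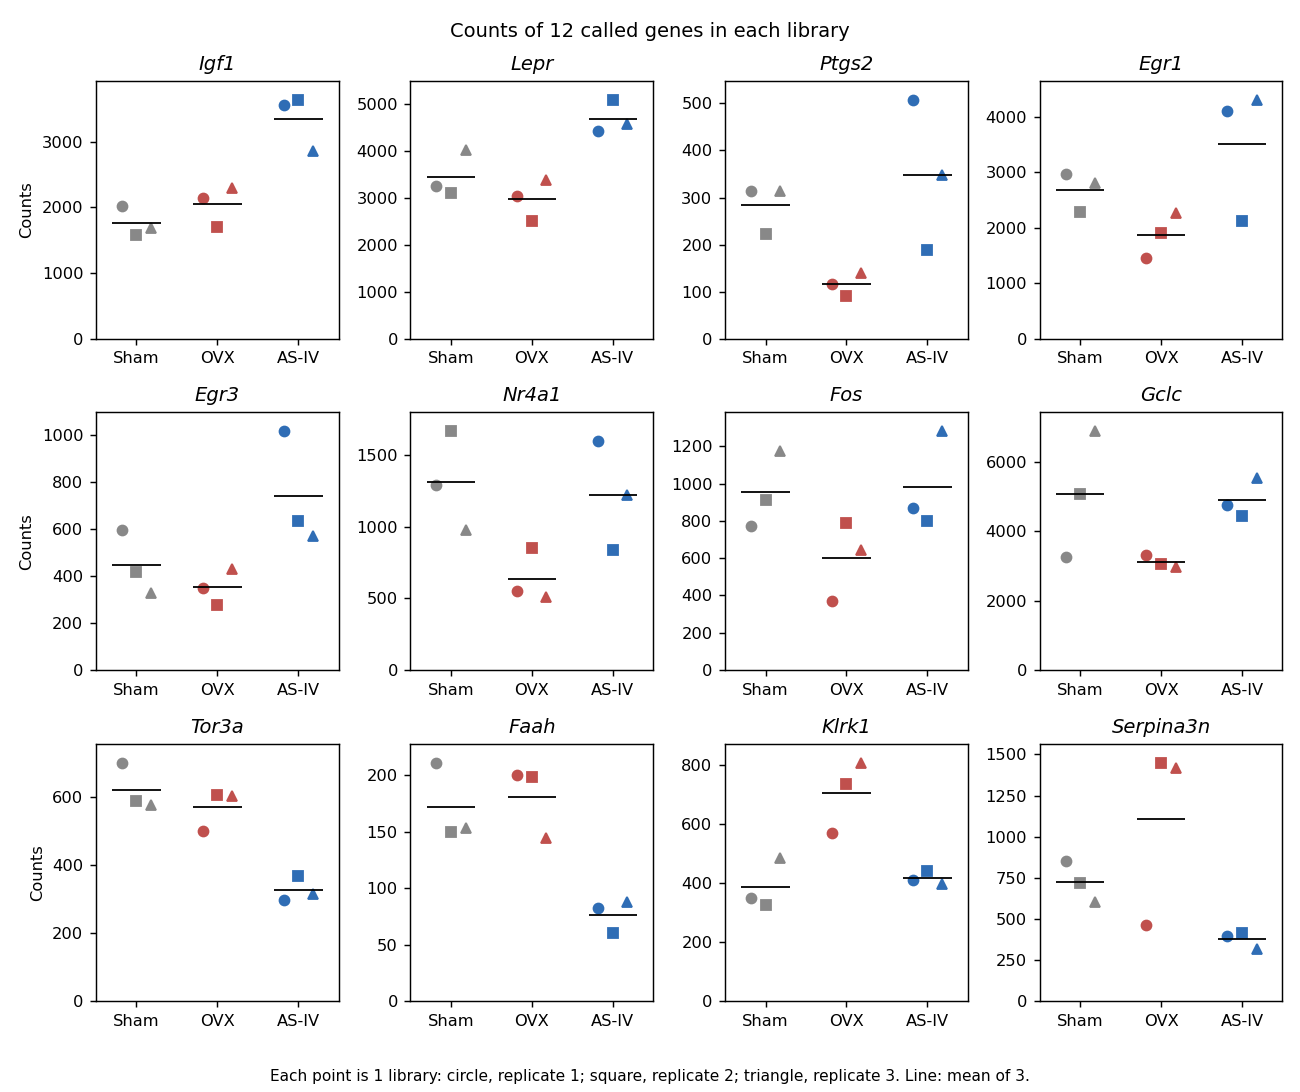
Counts (vertical axes, from 0) of 12 called genes in each Sham, OVX and OVX-AS-IV-High (AS-IV) library, where each point is 1 library and the line is the mean of 3. Igf1 lay at 2860 to 3635 counts with AS-IV, above the OVX range of 1700 to 2290, while Egr1 in AS-IV 2 (2119) lay within the OVX range of 1457 to 2259.

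Because these genes are classic targets of the cAMP and serum response pathways, the sequence next to the start of Egr1, Nr4a1 and Ptgs2 is shown, as the table of RefSeq windows used here gives it. The letters are the 250 bases before the annotated gene start in the GRCr8 build. Capitals mark the core of the cAMP response element, TGACG on either strand (CGTCA as read here), and the CArG box, which serum response factor binds. Egr1 lies at chr18:26736828-26737077 (plus strand), Nr4a1 at chr7:134259888-134260137 (plus strand) and Ptgs2 at chr13:64713813-64714062 (plus strand).
Egr1: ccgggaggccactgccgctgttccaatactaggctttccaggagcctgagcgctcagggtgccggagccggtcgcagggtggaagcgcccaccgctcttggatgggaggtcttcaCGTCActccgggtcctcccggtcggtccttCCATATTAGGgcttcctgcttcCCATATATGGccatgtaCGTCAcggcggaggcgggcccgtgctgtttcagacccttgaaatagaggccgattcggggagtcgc
Nr4a1: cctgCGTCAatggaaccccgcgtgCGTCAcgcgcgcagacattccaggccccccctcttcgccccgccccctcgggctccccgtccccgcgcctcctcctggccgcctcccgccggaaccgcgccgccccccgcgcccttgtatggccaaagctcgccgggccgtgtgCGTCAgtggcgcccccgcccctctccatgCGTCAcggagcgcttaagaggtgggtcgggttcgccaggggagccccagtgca
Ptgs2: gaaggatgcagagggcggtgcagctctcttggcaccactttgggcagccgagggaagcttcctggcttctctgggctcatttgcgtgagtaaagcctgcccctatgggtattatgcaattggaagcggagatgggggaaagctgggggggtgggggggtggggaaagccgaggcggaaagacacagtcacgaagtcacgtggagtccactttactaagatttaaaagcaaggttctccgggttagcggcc

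The Egr1 window held 2 TGACG matches and 2 CArG boxes, the Nr4a1 window held 4 TGACG matches and 0 CArG boxes, and these letters were not in the Ptgs2 window. Of all 33469 windows of this length, 18.2% held TGACG on either strand and 1.5% held a CArG box. Among the 10 immediate early genes with a window that were not called, 7 held TGACG and 2 held a CArG box. Only 2 of the 4 called members, Egr1 and Nr4a1, had a window, too few to compare with the others.

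Of the other genes with the smallest p among those higher, Fbxo30 (an F-box protein), Tasor (a subunit of the HUSH silencing complex) and Kpna4 (an importin alpha) kept their calls with any library left out. Kpna4 had 3983, 3731 and 3961 counts in OVX and 7555, 7265 and 4550 with AS-IV. Tasor had 2768, 3010 and 2927 counts in OVX and 5400, 5536 and 3324 with AS-IV. For Kpna4 and Tasor the third AS-IV library was clearly the lowest of its group. The log2 fold changes were 0.74 ± 0.17 for Fbxo30, 0.74 ± 0.17 for Tasor and 0.75 ± 0.17 for Kpna4.

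Nuak2, an AMPK-related kinase, had 724, 975 and 894 counts in OVX and 1640, 1218 and 1273 with AS-IV. Its log2 fold change of 0.70 ± 0.17 was 0.55 without AS-IV 1, which ended the call. Eea1, a tether of early endosomes, also lost its call without AS-IV 1 (0.50) and the zinc finger gene Zfp948 lost it without AS-IV 2 (0.57). Cpeb4, which binds the polyadenylation elements of mRNAs, lost it without OVX 2 (0.54) or without AS-IV 2, and the methyl-CpG binding factor gene Zbtb33 lost it without AS-IV 1 or without AS-IV 2 (0.53).

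Members of the gene lists added Gclc, Dnajb9 and Inhba. Gclc, the catalytic subunit of the enzyme that limits glutathione synthesis, had 3309, 3054 and 2961 counts in OVX and 4743, 4424 and 5530 with AS-IV, with no overlap. Its log2 fold change was 0.68 ± 0.23, and without AS-IV 3 it was 0.58 with an unadjusted p past the threshold, so that the call was lost. Among 11 well-expressed Nrf2 targets Gclc alone was called and 5 had a log2 fold change above 0, with Gclm at 0.25, Nqo1 at -0.06 and Hmox1 at -0.10. None of the 15 antioxidant enzyme genes was called, and their median was -0.03.

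Dnajb9, a chaperone partner of the endoplasmic reticulum, had 1082, 1175 and 979 counts in OVX and 1865, 2066 and 1189 with AS-IV, and its log2 fold change of 0.69 ± 0.18 lost its call without AS-IV 2 (0.53). Inhba, the activin A subunit gene, had 1002, 979 and 919 counts in OVX and 1982, 1442 and 1004 with AS-IV. Its log2 fold change of 0.63 ± 0.26 was called without AS-IV 3 and lost its call without any 1 of the other 5 libraries, with a smallest value of 0.36 without AS-IV 1.

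The 184 genes called higher were uneven across the AS-IV libraries. Their median log2 CPM above the OVX mean was 0.99 in AS-IV 1, 0.80 in AS-IV 2 and 0.24 in AS-IV 3, and AS-IV 3 was the lowest AS-IV library in 147 of the 184 while AS-IV 1 was the highest in 117. The 46 genes called lower were even across the libraries, with medians of -0.71, -0.88 and -0.82. The genes called higher were also long. The median transcript length implied by the deposited counts and FPKM was 4278 bases for them, 3330 bases for all well-expressed genes and 2013 bases for the genes called lower. Over 5 bins of all well-expressed genes by that length, the median log2 fold change went from -0.06 in the shortest, with 22 genes higher and 19 lower, to 0.04 in the longest, with 50 higher and 2 lower. The part of transcript length in these calls was not tested.

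**Figure D2:**
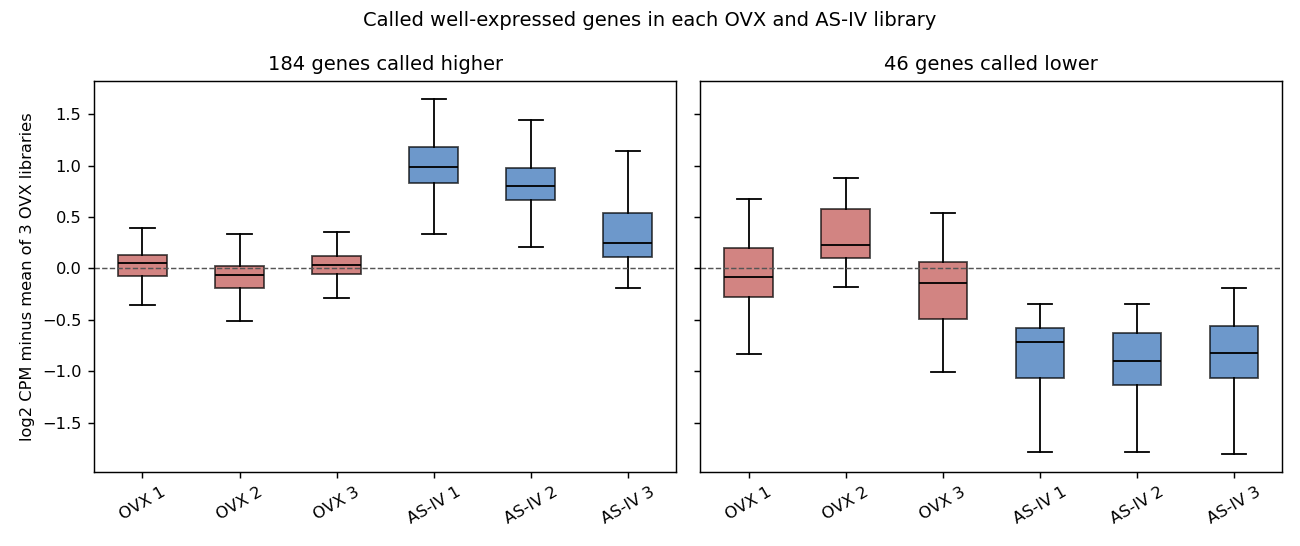
Box plots, over the 184 genes called higher (left) and the 46 called lower (right), of log2 CPM minus the mean of the 3 OVX libraries, for each OVX and AS-IV library; boxes span the quartiles, lines are medians and whiskers reach 1.5 interquartile ranges. Genes called higher had medians of 0.99 and 0.80 in AS-IV 1 and 2 and 0.24 in AS-IV 3.

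Tor3a and Faah were the genes called lower with the smallest p of those named here. Tor3a, an ATPase of the torsin family and the gene with the smallest p, had 501, 607 and 605 counts in OVX and 299, 368 and 316 with AS-IV. Faah, the hydrolase that degrades the endocannabinoid anandamide, had 200, 198 and 144 counts in OVX and 82, 60 and 88 with AS-IV. For both genes the groups did not overlap and the calls held with any library left out. Tor3a fell by 0.78 ± 0.14 on the log2 scale and Faah by 1.21 ± 0.25.

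Serpina3n, a secreted protease inhibitor, had 462, 1450 and 1418 counts in OVX and 396, 417 and 319 with AS-IV. OVX 1 lay close to the AS-IV libraries and the other OVX libraries lay far above them, and the log2 fold change was -1.53 ± 0.36. Snn, the gene of the membrane protein stannin, had 1079, 1489 and 1506 counts in OVX and 646, 748 and 892 with AS-IV. Klrk1 encodes NKG2D, an activating receptor of natural killer and T cells, and had 571, 735 and 809 counts in OVX and 412, 440 and 398 with AS-IV. Snn fell by 0.81 ± 0.19 and Klrk1 by 0.73 ± 0.18 on the log2 scale, and both calls, like that of Serpina3n, held with any library left out. The T and NK cell list as a whole had 0 of 10 members called.

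Cma1 and Mcpt8, which encode proteases of mast cells and basophils, were called lower. Cma1, mast cell chymase, had 1377, 1378 and 792 counts in OVX and 785, 654 and 627 with AS-IV, where OVX 3 was close to AS-IV 1, and its log2 fold change was -0.75 ± 0.20. Mcpt8 had 6255, 6224 and 4657 counts in OVX and 3916, 3782 and 3221 with AS-IV, without overlap. Its log2 fold change of -0.63 ± 0.15 lost its call without OVX 1 (-0.54), OVX 2 or AS-IV 3. Cma1 alone was called among the 10 well-expressed genes of the mast cell, basophil and eosinophil list, which had a median of -0.07. The Fc receptor gene Ms4a2 (0.58) and the eosinophil granule genes Prg3 (0.30), Epx (0.25) and Prg2 (0.03) lay above 0 without being called. The summed level of the list was 790, 629 and 801 CPM in OVX and 869, 819 and 695 CPM with AS-IV. The part of these cells in the result was not tested. Ackr4, a scavenging chemokine receptor, and Mal, a membrane proteolipid, fell by 0.65 ± 0.15 and 0.69 ± 0.18 and lost their calls without AS-IV 3 (-0.57) and without OVX 2 (-0.56), respectively.

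Genes of the major histocompatibility complex, named RT1 in the rat, gave some of the largest differences. Of 30 well-expressed RT1 genes, 6 were called lower and 1 higher, against 0.358% and 1.43% of all well-expressed genes. RT1-A1, a class I gene, had 1529, 1242 and 476 counts in OVX and 314, 332 and 425 with AS-IV, and its log2 fold change was -1.57 ± 0.35. RT1-A3 had 2741, 2659 and 64 counts in OVX and 93, 36 and 49 with AS-IV. RT1-CE16 had 7622, 13140 and 158 counts in OVX and 167, 410 and 79 with AS-IV. For RT1-A3 and RT1-CE16 the third OVX library was at the level of the AS-IV libraries, and the groups overlapped. The Sham libraries had 2255, 1273 and 1137 counts of RT1-A3 and 7745, 7045 and 1927 counts of RT1-CE16, all above OVX 3 and the AS-IV libraries.

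The fitted log2 fold changes were -4.91 ± 1.10 for RT1-A3 and -4.96 ± 1.31 for RT1-CE16, and these calls held with any library left out. The class II gene RT1-Bb had 930, 2191 and 824 counts in OVX and 542, 568 and 619 with AS-IV, a log2 fold change of -1.16 ± 0.35 that was -0.60 without OVX 2. RT1-CE15 (-1.18 ± 0.33) and RT1-DOb (-0.96 ± 0.31) were called lower, and RT1-Db2 (1.53 ± 0.60) was called higher, with 14, 74 and 71 counts in OVX and 74, 159 and 219 with AS-IV. RT1-Db2 lost its call without OVX 1 (1.09), AS-IV 2 or AS-IV 3. RT1-CE16, RT1-CE15, RT1-DOb and RT1-Db2 were named after their values were seen. RT1 genes differ between rat haplotypes, and the class I genes among them include closely similar copies. How reads were split between RT1 genes is not given in the sources used here, so the value of each is uncertain.

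Fam111a and Evc2 also had steplike counts, Fam111a between AS-IV libraries and Evc2 between OVX libraries. Fam111a, the gene of a protease linked to DNA replication, had 4270, 3275 and 3833 counts in OVX, 3758 in AS-IV 1, and 41251 and 36540 in AS-IV 2 and 3. AS-IV 1 lay inside the OVX range, the Sham libraries had 2851 to 3718 counts, and the log2 fold change of 2.86 ± 0.67 averages these levels. Evc2, a gene of the primary cilium, had 523, 655 and 128 counts in OVX and 100, 118 and 94 with AS-IV. OVX 3 lay near the AS-IV libraries, the Sham libraries had 490 to 1025 counts, and the log2 fold change was -2.04 ± 0.52. The calls of Fam111a and Evc2 held with any library left out.

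**Figure D3:**
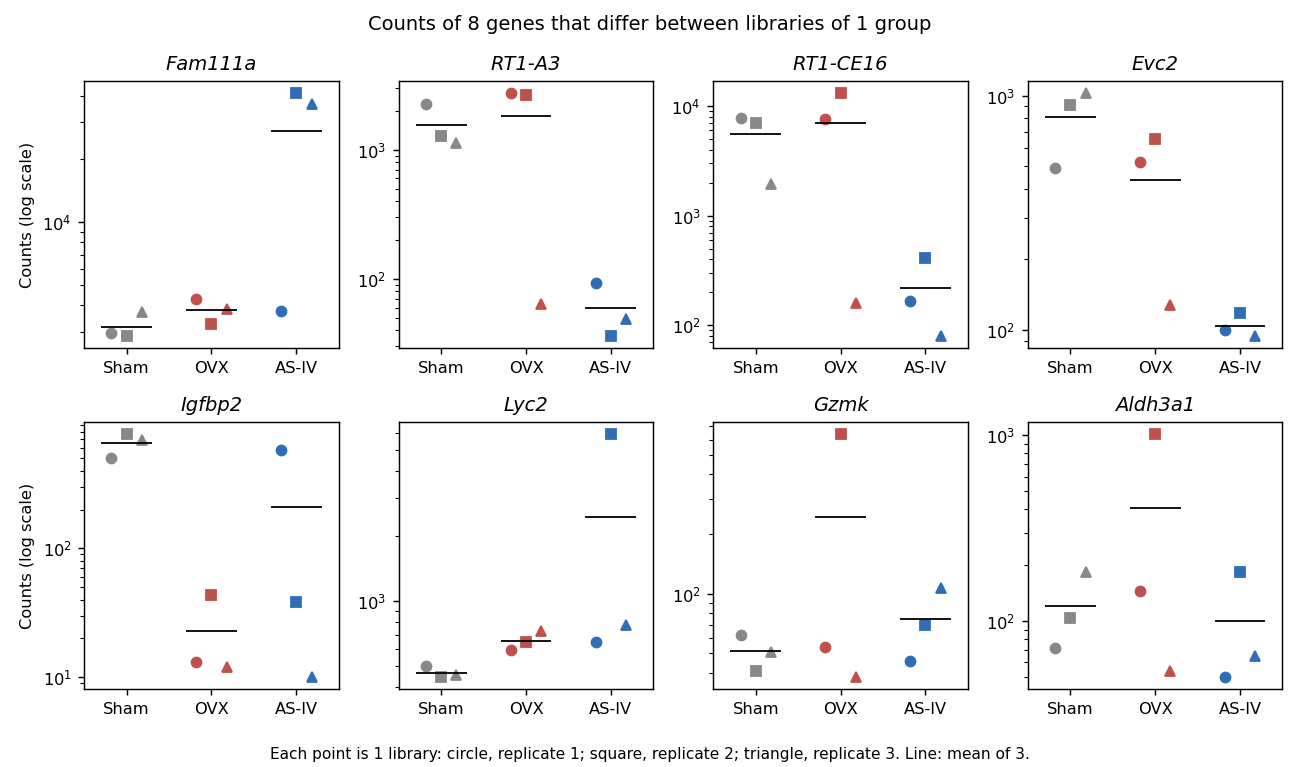
Counts (log axes) of 8 genes in each library, where each point is 1 library and the line is the mean of 3. Fam111a was at 41251 and 36540 counts in AS-IV 2 and 3 against 3758 in AS-IV 1, RT1-A3 was at 64 counts in OVX 3 against 2659 and 2741 in the other OVX libraries, and Igfbp2, Lyc2, Gzmk and Aldh3a1 each stood high in 1 library of the 6.

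Many shifts rested on 1 library, meaning that leaving out 1 of the 6 ended the call, turned the sign or moved the log2 fold change more than 1.5 times towards 0. Of the 411 well-expressed genes past 0.58 in size, called or not, 323 did so. Of the 184 genes called higher, 147 rested on 1 library and 38 were called in all 6 fits with a library left out. Of the 46 called lower, 29 rested on 1 library and 18 were called in all 6 fits. Groups did not overlap in 127 of the genes called higher and in 32 of those called lower. Over all well-expressed genes the share was 6.99% in each direction. The calls were made on these same libraries, so a larger share among called genes was built in.

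The calls higher depended most on AS-IV 1, without which 109 of the 184 were lost, and on OVX 2 and AS-IV 2, without which 80 and 74 were lost. Without AS-IV 3 only 18 were lost, and the count of genes called higher rose from 184 to 373, 166 of them among the original 184. Without AS-IV 1 the counts were 110 higher and 113 lower. With AS-IV 3 left out, 29 genes passed the adjusted p of 0.05 in edgeR's quasi-likelihood test, all of them higher, and they included Tasor, Kpna4 and Zbtb33. With the replicate number as a block, 195 genes were called higher and 72 lower, the latter more than 1.5 times the 46 without it.

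**Figure D4:**
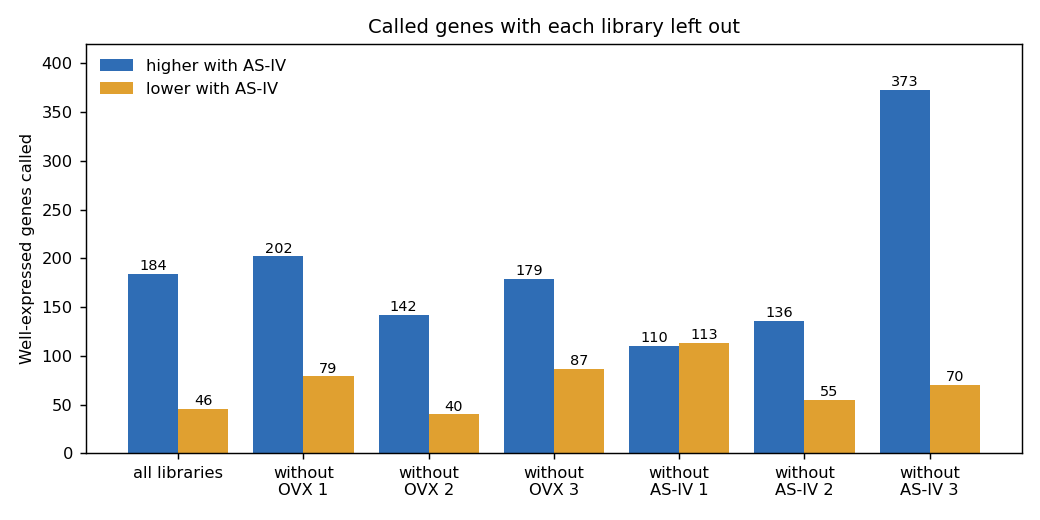
Number of well-expressed genes called higher and lower with AS-IV in the fit of all libraries and in each fit without 1 of the 6 libraries (bars from 0). The count higher ran from 110 without AS-IV 1 to 373 without AS-IV 3, and the count lower from 40 without OVX 2 to 113 without AS-IV 1.

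The largest fold changes that rested on 1 library were those of Igfbp2, Angptl7, Aldh3a1, Lyc2, Gzmk and Myl3. Igfbp2, which encodes a binding protein of insulin-like growth factors, had 13, 43 and 12 counts in OVX and 584, 38 and 10 with AS-IV, against 501, 771 and 696 in Sham. AS-IV 1 was the only treated library near the Sham level. The log2 fold change of 3.25 ± 1.24 was called, was 0.11 without AS-IV 1, lost its call also without OVX 1 or OVX 3, and was not called with the replicate block (1.69).

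Lyc2, a lysozyme gene, had 594, 645 and 730 counts in OVX and 650, 5956 and 779 with AS-IV. Its called log2 fold change of 1.92 ± 0.72 was 0.15 without AS-IV 2, lost its call without any 1 OVX library, and was not called with the block (1.12). Angptl7, a secreted angiopoietin-like protein gene, had 1835, 4500 and 677 counts in OVX and 381, 821 and 498 with AS-IV. The groups overlapped, and the called log2 fold change of -2.01 ± 0.73 was -1.14 without OVX 2, where it was no longer called, and the call was also lost without AS-IV 1 or AS-IV 3.

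Aldh3a1, an aldehyde dehydrogenase gene, stood at 1017 counts in OVX 2 and at 146 and 54 in OVX 1 and 3, against 50 to 184 with AS-IV. Its log2 fold change of -1.98 ± 0.96 was not called and was -0.0038 without OVX 2, although it was called with the block (-1.31). Gzmk, a granzyme of cytotoxic lymphocytes, had 54, 640 and 38 counts in OVX and 46, 70 and 107 with AS-IV, and its uncalled log2 fold change turned from -1.67 ± 0.91 to 0.70 without OVX 2. Myl3, a myosin light chain of slow and cardiac muscle, had 1845, 66 and 249 counts in OVX and 5570, 503 and 340 with AS-IV. Its uncalled log2 fold change turned from 1.59 ± 1.59 to -0.77 without AS-IV 1, and it was called with the block (1.61).

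The bone cell lists held 0 called genes. The 13 osteoblast and bone matrix genes had a median log2 fold change of -0.35, with 2 members above 0. Col1a1, the main collagen of bone, had 211804, 342469 and 290551 counts in OVX and 99287, 283656 and 182066 with AS-IV, and its log2 fold change of -0.56 ± 0.48 was not called. Col1a2, its partner chain, had -0.62 ± 0.50 and was not called. With the replicate block both were called, at -0.65 for Col1a1 and -0.72 for Col1a2. The median of the list was -1.06 in AS-IV 1, 0.11 in AS-IV 2 and -0.19 in AS-IV 3, and it was -0.10 without AS-IV 1.

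Osteoclast genes had a median of -0.01, with the protease gene Ctsk at -0.23 and the phosphatase gene Acp5 at -0.01. Osteocyte genes had a median of -0.26 that turned to 0.12 without OVX 3, and chondrocyte genes one of 0.07 that turned to -0.28 without OVX 1. The list of RANKL, OPG and osteoclast growth signals had a median of -0.03 over 7 genes, with Tnfsf11 (RANKL) at 0.02 and its receptor gene Tnfrsf11a at -0.43.

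Lists of other cells were mostly set by 1 library as well. The 15 skeletal muscle genes had medians of 1.17, 0.02 and -1.86 in AS-IV 1, 2 and 3, and their summed level was 4918, 2718 and 2244 CPM in OVX and 6818, 2929 and 802 CPM with AS-IV. The 14 interferon-stimulated genes had medians of 0.88, -0.42 and -1.09 in AS-IV 1, 2 and 3, with 0 called. The T and NK cell list had a median of -0.70, with none of 10 members above 0, and 0.07 without OVX 2. The 11 endothelial genes had a median of -0.14, again with none above 0, and no single library left out turned it or moved it by more than 1.5 times towards 0. Its medians were -0.15, -0.17 and -0.11 in AS-IV 1 to 3 and 0.11, 0.15 and -0.26 in OVX 1 to 3, so that OVX 3 lay below every AS-IV library, and no member was called. All 15 erythroid genes lay above 0, with a median of 0.13, and 0.02 without AS-IV 3, and Hba-a2, an alpha globin gene, had 0.29 ± 0.17 without being called. Early B cell genes had a median of -0.22 that was -0.12 without AS-IV 1. Car3, a carbonic anhydrase of the adipocyte list, had 19790, 14656 and 16590 counts in OVX and 28237, 24977 and 25780 with AS-IV. Its groups did not overlap, and its log2 fold change of 0.65 ± 0.40 was called with the replicate block alone (0.67).

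**Figure D5:**
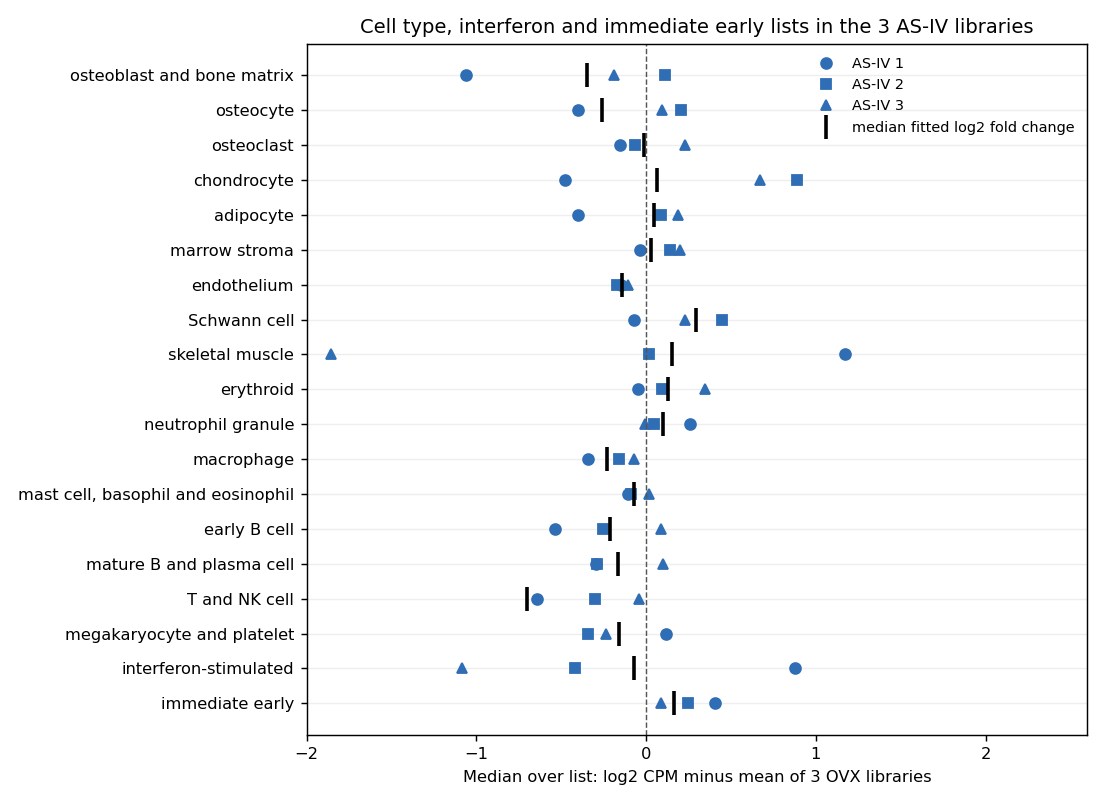
Median over each gene list of log2 CPM minus the mean of the 3 OVX libraries (horizontal axis) in AS-IV 1 (circle), 2 (square) and 3 (triangle), and the median fitted log2 fold change (black bar), for 19 lists. Skeletal muscle ran from 1.17 in AS-IV 1 to -1.86 in AS-IV 3, while the endothelial medians lay between -0.17 and -0.11.

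The study names 8 hub genes, which it chose on these samples, so that their direction here is not independent evidence. Of these, Lep, Ptgs2, Gfap and Igfbp2 were well expressed, and Ptgs2 and Igfbp2 were called, as described above. Lep, which encodes leptin, had 238, 734 and 203 counts in OVX and 140, 195 and 228 with AS-IV, and a log2 fold change of -1.03 ± 0.46 that was not called and was -0.23 without OVX 2. Gfap, a filament protein of glia, had 73, 127 and 77 counts in OVX and 45, 293 and 443 with AS-IV. Its log2 fold change of 1.52 ± 0.95 was not called.

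The other hub genes were below the count minimum. The Wnt ligand gene Wnt10a had 2, 10 and 5 counts in OVX and 18, 24 and 42 with AS-IV. Wnt1 had 3, 3 and 2 counts in OVX and 17, 3 and 20 with AS-IV, so that AS-IV 2 did not differ from OVX. Il22ra2, a decoy receptor of interleukin 22, had 25, 42 and 28 counts in OVX and 108, 66 and 38 with AS-IV. Gzmb, a granzyme, had 17, 25 and 10 counts in OVX and 21, 270 and 40 with AS-IV.

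Terms deposited with the genes were read by the median log2 fold change of their well-expressed members, for terms of 15 to 300 such members. Of 305 KEGG terms, 54 had a median above 0 and 251 below, between -0.19 and 0.11, and 292 rested on 1 library. Of 2356 GO terms, 766 were above and 1590 below, between -0.22 and 0.22, and 2205 rested on 1 library. The median of all well-expressed genes was -0.02.

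Primary immunodeficiency had the lowest KEGG median, -0.19 over 30 genes, none of them called, and -0.10 without OVX 2. Autoimmune thyroid disease had -0.18 over 35 genes, of which 6 were called lower and 1 higher, all of them the RT1 genes above. Heparan sulfate biosynthesis had -0.17, the renin-angiotensin system -0.14 with Cma1 called, and the proteasome -0.14 with 5 of 44 genes above 0. ECM-receptor interaction also had -0.14, over 70 genes with 0 called, but -0.03 without OVX 2.

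At the other end, starch and sucrose metabolism and taste transduction each had 0.11, and these were 0.03 and 0.04 without AS-IV 1. Of the 20 KEGG terms at the ends of the range, 19 rested on 1 library, the exception being mineral absorption at 0.04.

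Of the 20 GO terms at the ends, 18 rested on 1 library. The exceptions were the biosynthesis of heparan sulfate proteoglycan, at -0.19 with 2 of 16 genes above 0, and microvillus assembly, at 0.15 with 11 of 16 above 0. Skeletal muscle contraction had the highest GO median, 0.22, with 0.88, 0.12 and -0.05 in AS-IV 1, 2 and 3 and -0.53 without AS-IV 1. The M band of muscle had 0.15, with 1.32, -0.02 and -1.19 in the 3 libraries. These are the libraries in which the summed muscle markers were 6818, 2929 and 802 CPM, and their part in the muscle terms was not tested. Classical complement activation had the lowest GO median, -0.22, and -0.10 without AS-IV 1, and structural constituents of the extracellular matrix had -0.20 and -0.02 without AS-IV 1. Hormone activity had 0.17 over 29 genes, and 0.05 without AS-IV 2. Igf1, Gdf15 and Inhba were called higher (10.3% of its members) and Kng1 was called lower (3.45%). Over all well-expressed genes these shares were 1.43% and 0.358%.

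Terms tied to bone remodelling and to the pathways studied with AS-IV had medians near that of all genes. KEGG osteoclast differentiation had -0.02 over 116 genes, with Fos the only member called. The Wnt signalling pathway had 0.01 over 133 genes, NF-kappa B signalling -0.03 over 83 with Ptgs2 called, and JAK-STAT signalling -0.03 over 103 with Lepr and Osm called. VEGF signalling had -0.01, estrogen signalling 0.01 and glutathione metabolism -0.01, with Gclc and Chac2 called higher in the last. GO osteoblast differentiation had -0.02 over 93 genes, with Igf1, Cbfb and Igfbp2 called higher. The call of Igfbp2 was lost without AS-IV 1, as given above. GO bone mineralization had -0.03 over 57 genes, with Ptgs2 the only member called. Members called higher were 0.862% of KEGG osteoclast differentiation, 1.5% of Wnt, 1.2% of NF-kappa B and 1.94% of JAK-STAT signalling. They were 2% of VEGF and 1.22% of estrogen signalling, 3.92% of the 51 glutathione metabolism genes and 3.23% of osteoblast differentiation. Bone mineralization had 1.75%, and the share over all well-expressed genes was 1.43%. Of these terms VEGF signalling alone had a member called lower.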

How the data were processed

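Bone mRNA was sequenced from 9 rats in 3 groups of 3. The authors prepared stranded poly(A) libraries, aligned reads with Tophat and Bowtie2 and estimated abundance with eXpress, and the submitters' processing notes name the build mRatBN7.2. The annotation release, the strand setting and how whole counts were made are not given in the sources used here. The deposited tables give each gene a raw count and an FPKM value in every library, with its GO and KEGG terms. No column of another series was present.

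Counts of all 9 libraries were fitted together in edgeR 4.0.16 (TMM, filterByExpr with a minimum count of 10, quasi-likelihood test, group only) and OVX-AS-IV-High was contrasted with OVX. Benjamini-Hochberg adjustment covered the 16874 genes tested. Log2 CPM used a prior count of 2. The fit was tested on simulated data. DESeq2 1.42.0 and limma 3.58.1 on log2(FPKM + 1) or log2(FPKM + 0.1) served as alternatives, as did other filters, size factors, sample sets and count minimums of 30 and 300. Lists and terms were described by counts and medians, with no test, within R 4.3.3 and Python 3.11.15.

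Named genes were the 12 higher and 12 lower called genes with the smallest p, called members of 46 lists (for a list with none, its 3 most abundant members) and the 6 largest fold changes that rested on 1 library. Other genes, such as uncalled list members and called members of a term, were named after their values were seen. Named terms were 47 chosen by topic and the 10 highest and lowest of each kind, passing over terms that shared over 0.5 of their members. Terms, members and lists were chosen with earlier results of these data known. The study states that libraries came from independent animals. The deviations of same-numbered OVX and AS-IV libraries had correlations of 0.31, 0.16 and 0.13. OVX 2 and AS-IV 3, of unlike number, had 0.18, and the other unlike pairs lay between -0.28 and -0.05. Whether the numbers mark a true pairing is not known here. A fit with the replicate number as a block is given where it changed a call. Gene windows and chromosomes came from RefSeq (GRCr8). A called gene that the rule would name, and results that rest on it, are not reported here.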

Additional observations from a re-analysis of the deposited data

How the results depend on the processing

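The count of 230 called genes stayed within 1.5 times under DESeq2, other size factors, no low-count filter, the 6 libraries alone and the replicate block, and moved to 108 with limma on log2(FPKM + 1) and to 101 with limma and no low-value filter, on a scale that shrinks low genes. The count higher was 75, 71 and, with limma on log2(FPKM + 0.1), 111. The count lower was 30 with limma and no filter, 72 with the replicate block, 82 with a count minimum of 30 and 22 with one of 300. Past a log2 fold change of 1 there were 12 genes with limma on log2(FPKM + 1), with or without the filter, 79 with a minimum of 30 and 15 with one of 300. DESeq2 gave 37 genes with an adjusted p under 0.05. With 1 of the 9 libraries left out, the count called ran from 182 to 443, the count higher from 110 to 373, the count lower from 40 to 113, the count past a log2 fold change of 1 from 34 to 81 and the adjusted calls from 0 to 29. Of the 36 named genes that were called, 0 turned sign under any alternative, while 58 of the 105 not called did so under at least 1. Of the named genes, the replicate block ended the calls of Igfbp2 and Lyc2 and added those of Col1a1, Col1a2, Car3, Aldh3a1 and Myl3, and it changed no other call among them. Groups of 3 libraries limit the precision of every value, and counting error weighs most on genes near the minimum mean count of 100.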

Other observations

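A larger share of X-linked genes than of autosomal genes was called higher, a pattern noticed after the values were seen and not tested. By their place in RefSeq (GRCr8), 21 of 397 well-expressed X-linked genes (5.29%) were called higher and 0 lower. On the autosomes 160 of 12321 (1.3%) were called higher and 42 (0.341%) lower. Single autosomes ran from 0.265% called higher on chromosome 20 to 3.44% on chromosome 11. At an unadjusted p under 0.05, 60 X-linked genes were higher and 3 lower, against 612 and 262 of the 12321 autosomal genes. Over all well-expressed genes these shares were 5.26% and 2.12%. The median log2 fold change over the X-linked genes was 0.05, with medians of 0.07, 0.10 and 0.04 in AS-IV 1, 2 and 3, against -0.02 over the autosomal genes. With a library left out the median over X-linked genes ran from 0.03 without AS-IV 2 to 0.08 without AS-IV 1. The count called higher ran from 10 without AS-IV 1 to 44 without AS-IV 3. On the autosomes that count was 98 without AS-IV 1 and 324 without AS-IV 3. The 21 genes had log2 fold changes between 0.59 and 1.19, and 7 were called in all 6 fits with a library left out. They included Fmr1, whose product binds RNA at synapses, with 4252, 4227 and 4520 counts in OVX and 10061, 7557 and 4713 with AS-IV, and a log2 fold change of 0.80 ± 0.23 whose call was lost without AS-IV 1 (0.52). Sh3bgrl1, an SH3-binding protein gene, had 10221, 10379 and 11450 counts in OVX and 27512, 24380 and 10853 with AS-IV. AS-IV 3 was the lowest AS-IV library in 18 of the 21. Their median length was 5072 bases, and the part of length was not tested. Xist, the RNA that silences the second X chromosome, had 31546, 30676 and 37381 counts in OVX and 31045, 40355 and 36830 with AS-IV, a log2 fold change of 0.14 ± 0.13 that was not called.

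Osm, which encodes the cytokine oncostatin M, had 287, 349 and 306 counts in OVX, 648, 431 and 461 with AS-IV, and 602, 612 and 540 in Sham, with a log2 fold change of 0.74 ± 0.18 whose call was lost without AS-IV 1 (0.53).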
